A study of Mus musculus with 37 samples.

Results

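The neurotrophins and their receptors were followed in the cortex of mice that were 9 wk old. The members were chosen by name, with earlier results of these data known. They were Bdnf, Ntf3, Ntrk2, Ntrk3, Ngfr and Sort1, 6 genes in all. All probe sets annotated to them were taken, and 24 of the 45037 probe sets on the arrays belonged to 5 of the 6 genes. Bdnf had 2 probe sets, Ntrk2 and Ntrk3 had 8 each, and Ngfr and Sort1 had 3 each. The study describes Bdnf as not represented on its arrays. The platform annotation used here assigns both probe sets to Bdnf, and all Bdnf array values rest on that assignment. Ntf3 was not analysed here. The genes with 1 symbol in the annotation numbered 18193.

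Each array was taken to hold RNA from 1 mouse. Hdac4HET replicates 5 and 9 carried both Xist and Y-linked genes, so this is not certain for them. There were 9 mice of each of the genotypes WT, Hdac4HET and R6/2, and 10 that were Dble::R6/2. R6/2 mice were hemizygous for a transgene that carries the first exon of mutant human huntingtin, in a mixed CBA and C57BL/6 background. Hdac4HET mice had 1 constitutive null allele of Hdac4, a histone deacetylase, in all tissues, and Dble::R6/2 mice had both the transgene and the null allele. Each genotype held females and males (4 and 5 in WT, Hdac4HET and R6/2, and 5 and 5 in Dble::R6/2), and the study used the cross to ask whether less Hdac4 alters transcription in R6/2 mice.

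The median log2 level of an array was 6.16 to 6.21, arrays of the same genotype correlated at 0.993 to 0.998, and the number of mice limits the precision. Hdac4 was at 8.02 or less on every array with the null allele and at 8.28 or more on every array without it. The mean of 14 olfactory bulb markers lay above that of every WT array on 8 arrays, 7 of them Hdac4HET, and on 7 arrays it did so by more than 0.5. It ranged from 6.36 to 6.65 in WT, from 6.44 to 8.83 in Hdac4HET, from 6.36 to 6.63 in R6/2 and from 6.28 to 7.33 in Dble::R6/2 cortex. Xist and Y-linked genes did not match the sex on the label for 6 arrays, 1 WT, 3 Hdac4HET and 2 Dble::R6/2, and 2 of them carried both. Counts of the members and of the transcripts induced by BDNF are therefore given with and without these arrays. Counts of the other lists and of the markers rest on all arrays. The mean of 4 excitatory neuron markers, which define the cortical projection neurons, was at 10.28 or more on every array.

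Neurotrophins are secreted proteins that keep neurons alive and shape their synapses. BDNF acts through the receptor tyrosine kinase TrkB, the product of Ntrk2, and neurotrophin 3 acts mainly through TrkC, the product of Ntrk3. Both Trk genes also give truncated receptors without the kinase, and truncated TrkB is abundant in astrocytes. Ngfr encodes p75, which binds all neurotrophins and, with sortilin, the product of Sort1, binds their uncleaved precursors. Sortilin also sorts proBDNF and Trk receptors inside the neuron. The cortex makes BDNF and sends it along axons to the striatum, which makes little of its own, and transcription of Bdnf starts from several first exons and responds to neuronal activity.

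The start regions of the ligand are shown because activity acts on Bdnf through them, while the arrays read the transcripts of all first exons together. RefSeq windows on GRCm38.p6, from 250 bases before to 50 bases after each start, were found for 4 of the 6 genes, with 7 windows for Bdnf, 2 for Ntf3 and 1 each for Ngfr and Ntrk2. The half-site of the cAMP response element, CGTCA, was searched on both strands and occurred in 1 of the 7 Bdnf windows and in 20.8% of all 32851 windows. Its match begins 35 bases before the start. The AP-1 motif TGANTCA, whose complement has the same form, also occurred in 1 of the 7 Bdnf windows, against 7.81% of all windows. The full element TGACGTCA was in none of the 11 member windows, against 1.79% of all, and the GC box GGGCGG was in 6 of the 11, against 35.7% of all. A match is a description of letters only. The window at chr2:109692186-109692485 (plus strand), with CGTCA in capitals, and the window at chr2:109676782-109677081 (plus strand), with TGANTCA in capitals, read as follows.
Bdnf, window with CGTCA: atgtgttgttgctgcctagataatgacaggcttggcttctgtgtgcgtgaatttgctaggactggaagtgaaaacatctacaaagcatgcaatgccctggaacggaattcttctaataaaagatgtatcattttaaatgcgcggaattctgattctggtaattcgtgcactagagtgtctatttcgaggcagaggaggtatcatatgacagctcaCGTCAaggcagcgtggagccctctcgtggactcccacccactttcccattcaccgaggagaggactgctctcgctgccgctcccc
Bdnf, window with TGANTCA: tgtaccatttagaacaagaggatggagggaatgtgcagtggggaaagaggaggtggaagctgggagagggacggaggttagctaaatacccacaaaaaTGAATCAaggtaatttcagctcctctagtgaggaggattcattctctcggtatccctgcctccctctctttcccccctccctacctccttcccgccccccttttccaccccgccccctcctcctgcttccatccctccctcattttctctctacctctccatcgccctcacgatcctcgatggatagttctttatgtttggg

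Bdnf was lower in cortex with the transgene, by about the same amount whether both Hdac4 alleles were intact or not. The brighter probe set, 1422168_a_at, had log2 levels from 8.98 to 9.74 (median 9.37) in WT and from 8.98 to 9.62 (median 9.42) in Hdac4HET mice. In R6/2 mice it ranged from 8.68 to 9.19 (median 8.81), and in Dble::R6/2 mice from 8.66 to 8.98 (median 8.82). The WT and Hdac4HET mice therefore covered the same range, 7 of 9 R6/2 mice lay below the lowest WT mouse, and all 10 Dble::R6/2 mice lay below the lowest Hdac4HET mouse, although by less than 0.01. The means were 9.39 ± 0.26 (SD, n = 9) in WT, 9.35 ± 0.24 (n = 9) in Hdac4HET, 8.85 ± 0.17 (n = 9) in R6/2 and 8.83 ± 0.10 (n = 10) in Dble::R6/2 cortex.

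Bdnf 1422168_a_at changed by −0.54 on the log2 scale in R6/2 against WT (standard error 0.09, limma adjusted p = 5.28e-06), so that it fell by 31.2%. In Dble::R6/2 against Hdac4HET, which shares no array with the first comparison, it changed by −0.53 (standard error 0.09, adjusted p = 4.98e-06). The dimmer probe set, 1422169_a_at, had levels from 7.81 to 8.88 (median 8.36) in WT, 7.91 to 8.75 (median 8.31) in Hdac4HET, 7.55 to 7.998 (median 7.81) in R6/2 and 7.69 to 8.07 (median 7.85) in Dble::R6/2 mice. Here 5 of 9 R6/2 mice were below every WT mouse and 6 of 10 Dble::R6/2 mice below every Hdac4HET mouse. Its changes were −0.58 (SE 0.10, adjusted p = 8.63e-06), and −0.48 in Dble::R6/2 against Hdac4HET (SE 0.10, adjusted p = 0.000123). With the genotype means removed, the Bdnf probe sets correlated at 0.79 over the 37 arrays, which share hybridisation and RNA quality as well as biology. The arrays measured bulk tissue, in which fewer cells of a type and less RNA per cell cannot be told apart.

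**Figure D1:**
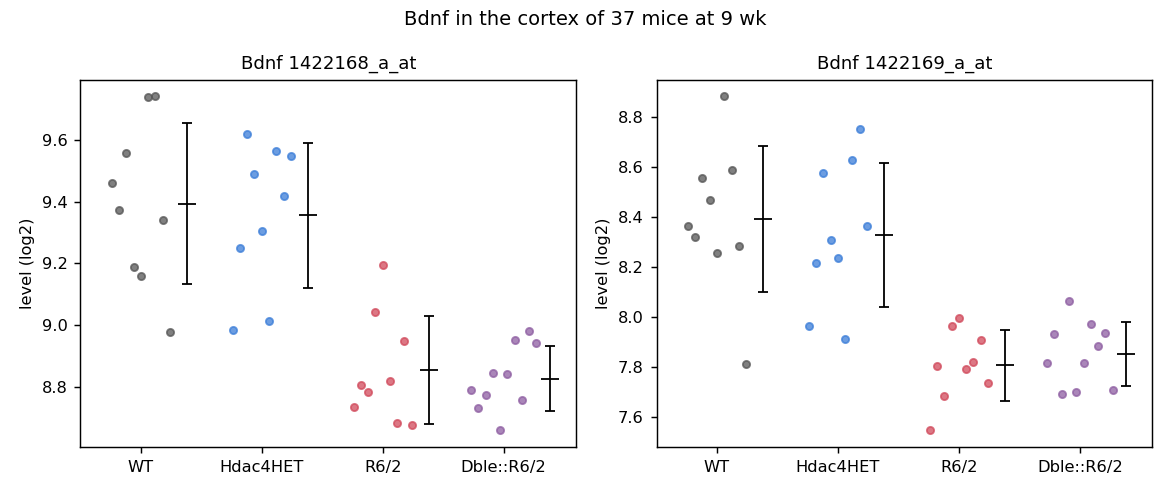
Log2 level of the Bdnf probe sets on each of the 37 arrays by genotype, with 1 point per mouse and the mean ± SD beside each group. The R6/2 and Dble::R6/2 mice have means of 8.85 and 8.83 on 1422168_a_at, against 9.39 and 9.35 in the WT and Hdac4HET mice.

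Ntrk2, the TrkB gene, was also lower with the transgene, by a smaller amount than the 1.3-fold threshold on most of its 8 probe sets. The brightest, 1458622_at, ranged from 11.57 to 11.81 (median 11.69) in WT, from 11.57 to 11.76 (median 11.64) in Hdac4HET, from 11.42 to 11.61 (median 11.51) in R6/2 and from 11.44 to 11.60 (median 11.49) in Dble::R6/2 mice. It overlapped slightly, with 7 of 9 R6/2 mice below every WT mouse and 8 of 10 Dble::R6/2 mice below every Hdac4HET mouse. The change was −0.18 in R6/2 against WT (standard error 0.03, adjusted p = 1.57e-05) and −0.16 in Dble::R6/2 against Hdac4HET (standard error 0.03, adjusted p = 3.71e-05).

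Ntrk2 1420838_at separated the genotypes more cleanly. Its levels were 10.49 to 10.76 (median 10.59) in WT and 10.10 to 10.48 (median 10.29) in R6/2 mice, with no overlap, and the change was −0.29 (standard error 0.04, adjusted p = 1.34e-07). In Hdac4HET mice they were 10.51 to 10.59 (median 10.54) and in Dble::R6/2 mice 10.23 to 10.46 (median 10.40), again with no overlap and a change of −0.17 (standard error 0.04, adjusted p = 0.000493), which did not pass without the 8 bulb arrays (−0.19, adjusted p = 0.073).

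Ntrk2 1420837_at was the probe set with the lowest p in Dble::R6/2 against R6/2. It ranged from 7.03 to 7.71 (median 7.44) in WT, 6.99 to 7.83 (median 7.51) in Hdac4HET, 6.84 to 7.40 (median 7.16) in R6/2 and 6.30 to 7.17 (median 6.70) in Dble::R6/2 mice. The R6/2 mice overlapped with WT and their change, −0.27 (standard error 0.11, adjusted p = 0.0535), did not pass (it passed in 16 of 49 alternatives, adjusted p from 0.0203 to 0.11), whereas Dble::R6/2 against Hdac4HET gave −0.71 (standard error 0.11, adjusted p = 2.02e-06). The difference between these changes was itself tested, and the interaction of −0.44 (standard error 0.16) had an adjusted p = 0.129. Without the 8 arrays with bulb markers above WT, which leaves 2 Hdac4HET arrays, Dble::R6/2 against Hdac4HET was −0.41 and did not pass (adjusted p = 0.12).

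Across the 8 Ntrk2 probe sets the change in R6/2 against WT ran from −0.42 to −0.06, 6 were lower at an adjusted p under 0.05 and 2 did not pass. Of the 8, 7 were lower in Dble::R6/2 against Hdac4HET. The probe set with −0.42, 1446712_at (standard error 0.15, adjusted p = 0.0239), rested on a few WT mice, since its WT levels spread from 6.53 to 8.02 and only 1 of 9 R6/2 mice was below all of them. It did not pass without WT replicate 2, 4 or 7 (changes of −0.37, −0.31 and −0.35, adjusted p = 0.0535, 0.0738 and 0.0588), or by the methods' t-test (Benjamini-Hochberg adjusted p = 0.0872). Its change in Dble::R6/2 against Hdac4HET, −0.47 (adjusted p = 0.0103), did not pass without the 8 bulb arrays (−0.29, adjusted p = 0.537) or without the 6 arrays whose sex-linked genes went against the label (−0.42, adjusted p = 0.0821). Ntrk2 1435196_at changed by −0.21 (adjusted p = 5.89e-05) and −0.19 (adjusted p = 0.000212), and the second did not pass without the 8 bulb arrays (−0.18, adjusted p = 0.0773). Ntrk2 1435305_at changed by −0.22 (adjusted p = 0.0152) and −0.38 (adjusted p = 5.52e-05), and 1437560_at by −0.29 (adjusted p = 0.000811) and −0.39 (adjusted p = 1.15e-05). Ntrk2 1444121_at, at −0.06, lay at percentile 6.42 of all probe sets in level, where arrays measure little. Which of these probe sets read full-length and which truncated TrkB was not determined.

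Markers of most cell types moved with the same comparisons. The mean of 9 astrocyte markers ranged from 10.73 to 10.84 in WT and from 10.45 to 10.63 in R6/2 cortex, with 7 of the 9 lower at an adjusted p under 0.05, none higher, and a median change of −0.28 (18.4% of all genes were lower and 28.1% higher at that threshold, and 14.1% and 28.4% in Dble::R6/2 against Hdac4HET). In Hdac4HET and Dble::R6/2 cortex it ranged from 10.71 to 10.86 and from 10.44 to 10.59. The mean of 4 excitatory neuron markers ranged from 10.60 to 10.91 in WT and from 10.28 to 10.69 in R6/2 mice, with 2 of 4 lower and a median of −0.19. The mean of 6 interneuron markers ranged from 10.98 to 11.18 in WT and from 10.41 to 10.66 in R6/2 mice, with 5 of 6 lower and a median of −0.36. With genotype means removed, the 8 Ntrk2 probe sets correlated over the 37 arrays with the excitatory neuron mean at −0.409 (1435196_at) to 0.62 (1458622_at) and with the astrocyte mean at −0.637 (1437560_at) to 0.273 (1435196_at), with no common sign. The mean of 6 striatal markers ranged from 8.81 to 9.91 in WT and from 8.13 to 9.20 in R6/2 samples, with 5 of 6 lower and a median of −0.69. It was highest in Hdac4HET samples, from 9.42 to 10.10, and ranged from 8.47 to 9.06 in Dble::R6/2 samples, with 6 of 6 lower and a median of −1.11. Lower in R6/2 against WT were also 5 of 7 oligodendrocyte, 3 of 4 oligodendrocyte precursor and 3 of 6 microglial markers, and 4 of 6 endothelial and pericyte markers were higher. In Dble::R6/2 against Hdac4HET, 12 of the 14 bulb markers were lower, and 8 of 9 astrocyte, 2 of 4 excitatory and 6 of 6 interneuron markers. The bulb markers were higher in Hdac4HET against WT (12 of 14, median change 1.16, where 1.43% of all probe sets passed in either direction). Their median change was 0.03 in R6/2 against WT. The part of these markers in the Bdnf and receptor changes was not tested.

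Ntrk3, the TrkC gene, had its clearest changes on probe sets 1455917_at and 1422329_a_at. On 1455917_at the levels were 8.73 to 9.03 (median 8.82) in WT, 8.75 to 9.02 (median 8.80) in Hdac4HET, 8.44 to 8.64 (median 8.56) in R6/2 and 8.26 to 8.60 (median 8.47) in Dble::R6/2 mice. No mouse with the transgene reached the level of any mouse without it. The change was −0.29 in R6/2 against WT (standard error 0.04, adjusted p = 1.19e-06), below the 1.3-fold threshold, and −0.40 in Dble::R6/2 against Hdac4HET (standard error 0.04, adjusted p = 1.52e-09), above it.

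Ntrk3 1422329_a_at behaved similarly, with −0.32 (SE 0.06, adjusted p = 2.31e-05), and −0.48 in Dble::R6/2 against Hdac4HET (SE 0.06, adjusted p = 7.2e-09). Its levels were 8.51 to 8.91 (median 8.72) in WT and 8.30 to 8.52 (median 8.42) in R6/2 mice, of which 8 of 9 were below every WT mouse. They were 8.55 to 8.91 (median 8.81) in Hdac4HET and 7.98 to 8.46 (median 8.29) in Dble::R6/2 mice, with no overlap. The brightest probe set, 1433825_at, fell by less, with −0.18 in R6/2 against WT (standard error 0.03, adjusted p = 3.62e-05) and −0.17 in Dble::R6/2 against Hdac4HET (standard error 0.03, adjusted p = 5.8e-05).

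The probe set with the largest Ntrk3 change also had the largest spread. Ntrk3 1447723_at ranged from 6.93 to 8.48 (median 7.85) in WT, 7.18 to 7.88 (median 7.32) in Hdac4HET, 6.19 to 7.45 (median 6.91) in R6/2 and 5.30 to 7.29 (median 6.53) in Dble::R6/2 mice. Its changes were −0.91 (SE 0.23, adjusted p = 0.0016), and −1.07 in Dble::R6/2 against Hdac4HET (SE 0.23, adjusted p = 0.000189), and the groups overlapped in both comparisons. The second did not pass without the 8 bulb arrays (−1.02, adjusted p = 0.101) or the 7 that stood farthest out (−0.93, adjusted p = 0.0533). Over all 8 Ntrk3 probe sets the change in R6/2 against WT ran from −0.91 to −0.05, with 5 lower and 3 not passing, and in Dble::R6/2 against Hdac4HET 4 were lower. Ntrk3 1425071_s_at (−0.06 and −0.09), 1425070_at (−0.12 and −0.09) and 1426003_at (−0.05 and 0.06) passed in neither comparison. The dim Ntrk3 1443970_at was lower in the first (−0.19, adjusted p = 0.00249) and at 0.08 in the second (adjusted p = 0.181).

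**Figure D2:**
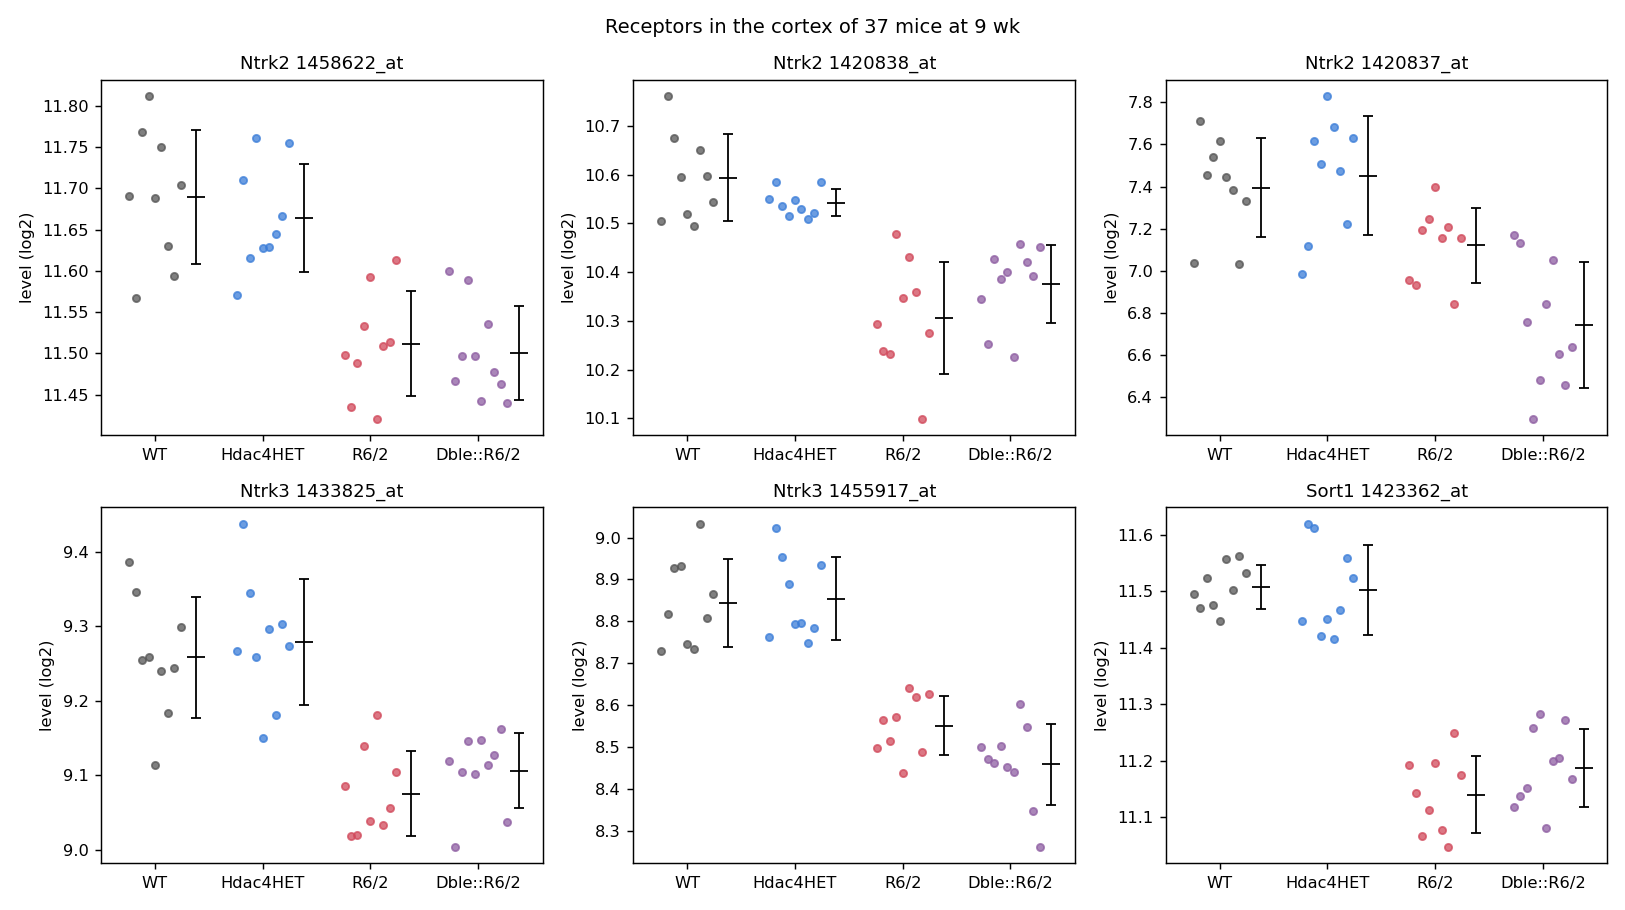
Log2 level of 6 receptor probe sets on each of the 37 arrays by genotype, with 1 point per mouse and the mean ± SD beside each group; each panel has its own axis, which does not start at 0. On Ntrk3 1455917_at and Sort1 1423362_at no mouse with the transgene reaches a mouse without it, and on Ntrk2 1420837_at the Dble::R6/2 median is 6.70 against 7.16 in R6/2.

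Ngfr, the p75 gene, was measured near or below the middle of the arrays' range, its brightest probe set lying at percentile 49.9 of all probe sets. On 1454903_at the levels were 6.05 to 6.68 (median 6.34) in WT, 6.03 to 6.39 (median 6.29) in Hdac4HET, 5.80 to 6.32 (median 6.06) in R6/2 and 5.85 to 6.54 (median 6.06) in Dble::R6/2 mice. The groups overlapped in both comparisons. The change in R6/2 against WT was −0.24 (standard error 0.08, adjusted p = 0.0192), which did not pass without WT replicate 2 (−0.19, adjusted p = 0.0546). In Dble::R6/2 against Hdac4HET it was −0.20 (standard error 0.08, adjusted p = 0.052), and it passed in 13 of 48 alternatives (adjusted p from 0.00764 to 0.472). The dimmer Ngfr 1421241_at passed in the first comparison (−0.24, adjusted p = 0.0122) and was at 0.10 in the second (adjusted p = 0.334), and 1450177_at passed in neither.

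Sort1 had the smallest p of all member probe sets. On 1423362_at the levels were 11.45 to 11.56 (median 11.503) in WT, 11.42 to 11.62 (median 11.47) in Hdac4HET, 11.05 to 11.25 (median 11.14) in R6/2 and 11.08 to 11.28 (median 11.18) in Dble::R6/2 mice. The groups with and without the transgene lay apart in both comparisons. The change was −0.37 in R6/2 against WT (standard error 0.03, adjusted p = 3.25e-12), a ratio of 0.775 that stayed just inside the 1.3-fold threshold, and −0.32 in Dble::R6/2 against Hdac4HET (standard error 0.03, adjusted p = 7.65e-11).

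The other Sort1 probe sets went the opposite way. For Sort1 1450955_s_at the mean was 6.996 ± 0.12 (SD, n = 9) in WT cortex and 7.15 ± 0.12 (n = 9) in R6/2 cortex, a change of 0.15 (standard error 0.05, adjusted p = 0.0229), and 1423363_at also changed by 0.15 (standard error 0.05, adjusted p = 0.00917). They changed in Dble::R6/2 against Hdac4HET by 0.15 and 0.16 (adjusted p = 0.0177 and 0.00385), and neither passed without the 8 bulb arrays, the 7 of these that stood farthest out or the 6 sex-mismatched arrays. The groups overlapped on both probe sets. The first, whose name marks probes shared by several transcripts, did not pass in R6/2 against WT without WT replicate 1 or 4 or R6/2 replicate 8 (changes from 0.128 to 0.13).

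Counted over all members, most probe sets had lower levels with the transgene. In R6/2 against WT 4 of the 24 probe sets changed by more than 1.3-fold at an adjusted p under 0.05, all of them lower, where 6.08% of all probe sets changed in either direction and 3.03% were lower. They were both of Bdnf, 1 of Ntrk2 and 1 of Ntrk3. At any size 18 passed, 16 lower and 2 higher, where 38.8% of all probe sets passed, 17.6% lower and 21.3% higher. Of the 24, 22 were below 0, against 54.5% of all, and their median change was −0.23, against −0.02 over all probe sets. The 24 came from 5 genes, with 8 each from Ntrk2 and Ntrk3. Probe sets of the same gene are repeated readings, so these counts are not counts of independent members. The groups did not overlap and R6/2 was lower for 3 member probe sets, against 2.73% of all.

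In Dble::R6/2 against Hdac4HET 8 of the 24 changed, again all lower, where 7.1% of all probe sets changed and 5.07% were lower. At any size 14 were lower and 2 higher, where 36.8% of all passed, 15.6% lower and 21.2% higher. Of the 24, 17 were below 0, against 44% of all, and the median change was −0.18, against 0.02 over all. The groups did not overlap and Dble::R6/2 was lower for 5 of the 24, against 3.55%. The count of 8 was 7 without the 8 bulb arrays, 8 without the 7 that stood farthest out, a choice made after seeing the data, and 8 without the 6 sex-mismatched arrays. At any size 9, 12 and 13 were then lower and none higher, where 16.2%, 22.9% and 30.1% of all probe sets passed. In R6/2 against WT the count was 4 in each case. The bulb exclusions take no array from these groups and the sex exclusion takes 1 WT array, so this is a weak check.

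**Figure D3:**
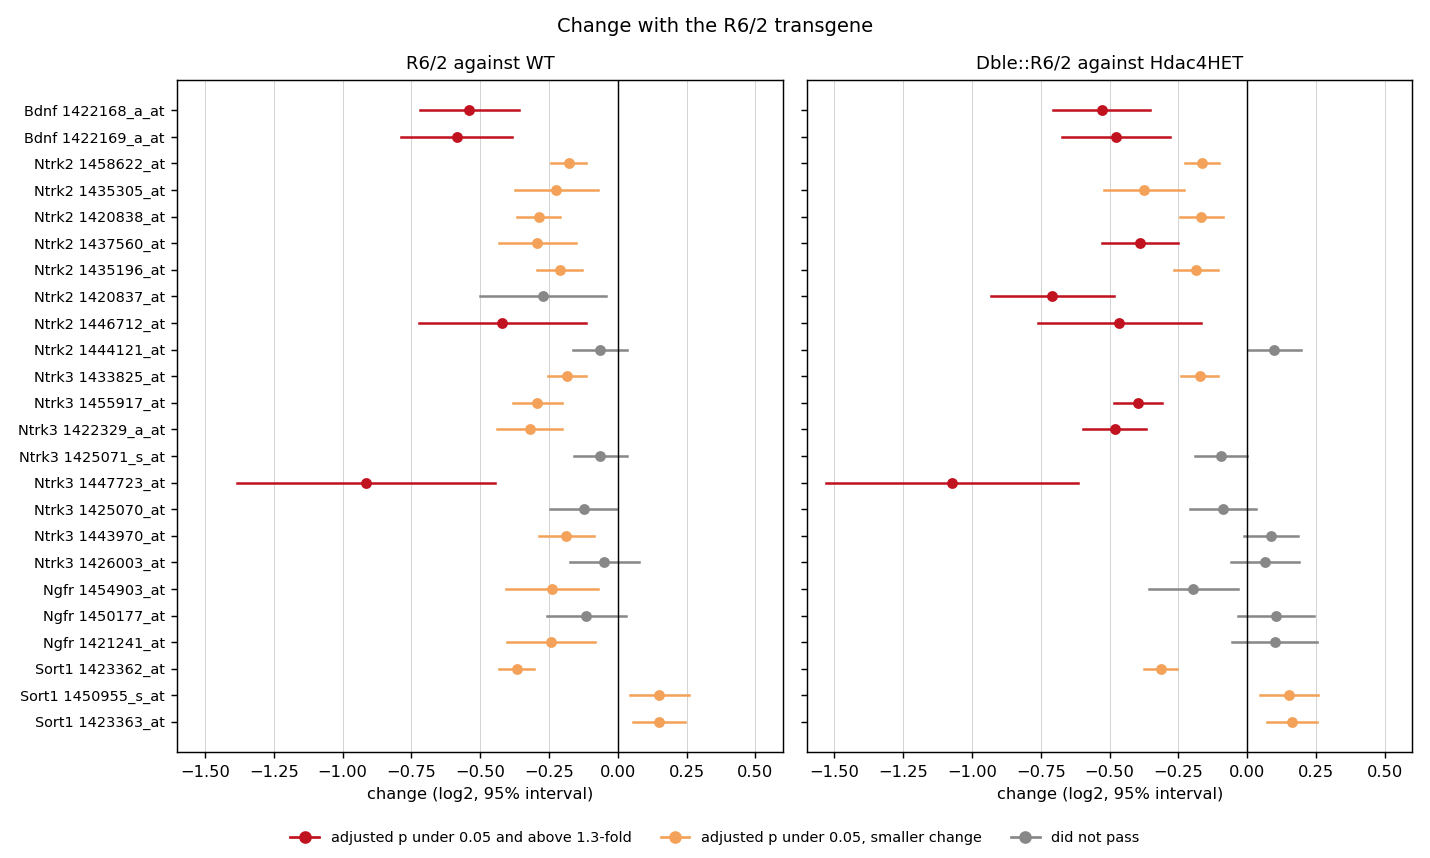
Log2 change of each of the 24 member probe sets in R6/2 against WT (left) and Dble::R6/2 against Hdac4HET (right), with the 95% interval from limma, colours marking which passed, and probe sets ordered by gene and level. In the left panel 22 of 24 lie below 0, and the probe sets to the right of 0 there are both from Sort1.

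No member passed the test with 1 Hdac4 allele removed, in mice with or without the transgene. In Dble::R6/2 against R6/2, the comparison the cross was made for, 0 of the 24 changed by the limma test, where 0.269% of all probe sets did, 0 passed at any size (1.99% of all), and 6 had an unadjusted p under 0.05 (17% of all). For Bdnf 1422168_a_at the difference was −0.03 with a 95% interval from −0.20 to 0.15, and for 1422169_a_at it was 0.05 with an interval from −0.15 to 0.24. A return from the R6/2 to the WT level would have been a difference of 0.54 and 0.58, above both intervals on these arrays. The study itself measured Bdnf by Taqman qPCR, in the cortex of older mice. There it reports that less Hdac4 brought the lowered Bdnf transcripts of R6/2 mice almost back to WT levels. It also reports more of the Bdnf coding exon with less Hdac4 in mice without the transgene. Age and assay both differ, so the array values do not test those results. For Sort1 1423362_at the difference was 0.05 (interval −0.01 to 0.11), for Ntrk2 1458622_at −0.01 (−0.07 to 0.05) and for Ntrk3 1433825_at 0.03 (−0.04 to 0.10).

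The lowest adjusted p in Dble::R6/2 against R6/2 was 0.06, for Ntrk2 1420837_at at −0.38 (interval −0.60 to −0.15), with 7 of 10 Dble::R6/2 mice below every R6/2 mouse. This probe set passed in 7 of 49 alternatives (adjusted p from 0.0309 to 0.133). Among them were those without Dble::R6/2 replicate 1, 2 or 7 (changes of −0.43, −0.42 and −0.41, adjusted p = 0.0309, 0.0318 and 0.0439). Leaving out Hdac4HET replicate 1 or WT replicate 8, which are not in the comparison but enter the shared spread, had the same effect (adjusted p = 0.0485 and 0.0479). Ntrk3 1422329_a_at was at −0.12 (interval −0.23 to −0.01, adjusted p = 0.265).

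In Hdac4HET against WT 0 of the 24 changed by the limma test, where 0.291% of all did, 0 passed at any size (1.43% of all) and 3 had an unadjusted p under 0.05 (16.6% of all). Bdnf 1422168_a_at was at −0.04 (95% interval −0.22 to 0.14, adjusted p = 0.874). The lowest adjusted p was 0.053, for Ntrk3 1443970_at at −0.18. This probe set, at percentile 25.0 of all in level, was also the only member with an interaction of R6/2 and Hdac4HET at an adjusted p under 0.05, with 0.27 (standard error 0.07, adjusted p = 0.0448). The interaction did not pass in 27 of 46 alternatives, including most that left out a single array. Its means were 4.59 ± 0.12 (SD, n = 9) in WT, 4.41 ± 0.06 (n = 9) in Hdac4HET, 4.40 ± 0.11 (n = 9) in R6/2 and 4.495 ± 0.09 (n = 10) in Dble::R6/2 cortex, with the highest mean in WT and overlapping groups. No member had an interaction above 1.3-fold at an adjusted p under 0.05, where 0.251% of all probe sets did. At any size 0.968% of all passed, and 6 members had an unadjusted p under 0.05 (19% of all). Females and males did not show a member difference that passed (0 of 24 by limma, background 0.04%, lowest adjusted p 0.918, 1 with an unadjusted p under 0.05 against 5.31% of all, 0 at any size against 0.0666% of all).

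**Figure D4:**
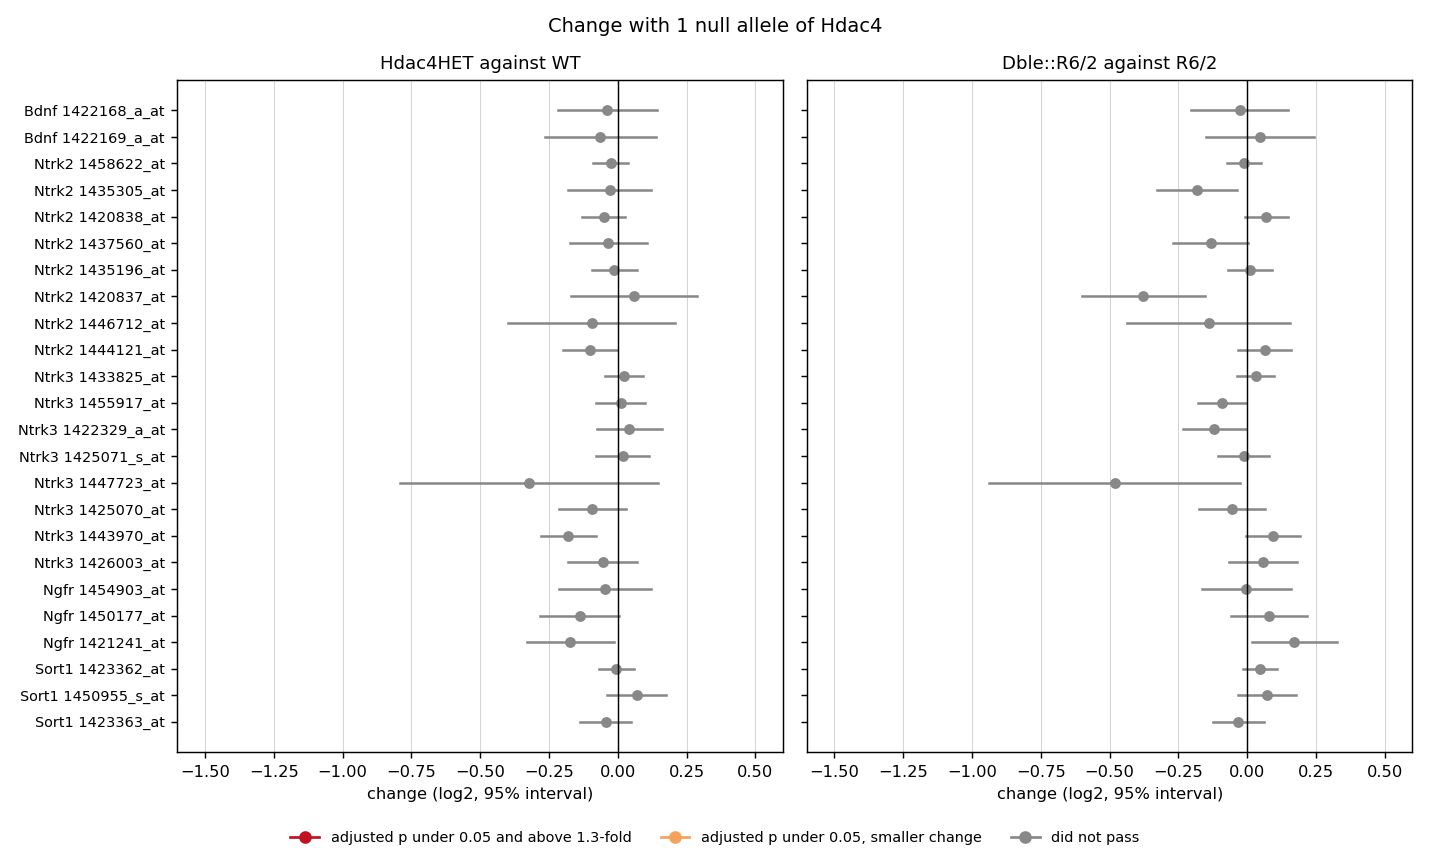
Log2 change of each of the 24 member probe sets in Hdac4HET against WT (left) and Dble::R6/2 against R6/2 (right), with the 95% interval from limma, on the same axis as the plot for the transgene. All 24 are grey because none passed, and the lowest adjusted p are 0.053 and 0.06.

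Transcripts that BDNF and TrkB signalling are known to induce in neurons were lower with the transgene. Each further gene is given by its brightest probe set, for which 3.3% of 18193 genes changed to lower and 3.75% to higher in R6/2 against WT, and 4.08% and 2.6% in Dble::R6/2 against Hdac4HET. Of 13 such transcripts, 10 changed in R6/2 against WT and 11 in Dble::R6/2 against Hdac4HET, all lower, with medians of −0.62 and −0.64 (0.00 and 0.04 over all genes). Without the 8 bulb arrays, 7 changed in the second comparison, without the 7 that stood farthest out 10, and without the sex-mismatched arrays 11. The list was chosen with earlier results of these data known, so its counts are a description and not a test. It also responds to neuronal activity in general and holds peptides of interneurons, whose markers fell as given above.

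Egr2, an immediate early transcription factor, had levels of 5.54 to 8.58 (median 7.67) in WT, 5.26 to 8.55 (median 7.11) in Hdac4HET, 4.13 to 6.81 (median 5.13) in R6/2 and 4.03 to 5.89 (median 5.19) in Dble::R6/2 mice. It changed by −2.06 (SE 0.40, adjusted p = 6.33e-05), and −1.94 in Dble::R6/2 against Hdac4HET (SE 0.39, adjusted p = 0.000102), with wide and overlapping groups. Crh, which encodes corticotropin-releasing hormone, had levels of 8.33 to 8.72 (median 8.48) in WT and 6.70 to 7.89 (median 7.19) in R6/2 mice, with no overlap. It changed by −1.31 (SE 0.10, adjusted p = 1.12e-13), and −1.27 in Dble::R6/2 against Hdac4HET (SE 0.10, adjusted p = 1.27e-13). Arc, a synaptic plasticity gene, changed by −1.11 and −1.29 (standard errors 0.32 and 0.31, adjusted p = 0.00505 and 0.000973), with WT mice spread from 7.62 to 10.45. Nptx2, a secreted pentraxin of excitatory synapses, changed by −1.01 and −1.17 (standard errors 0.09 and 0.09, adjusted p = 6.13e-12 and 7.01e-14). Vgf, a classical target of neurotrophins, and Fos did not pass the fold and p thresholds in either comparison. Within genotypes the listed transcripts correlated with Bdnf 1422168_a_at at 0.169 (Npy) to 0.594 (Homer1) over the 37 arrays.

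**Figure D5:**
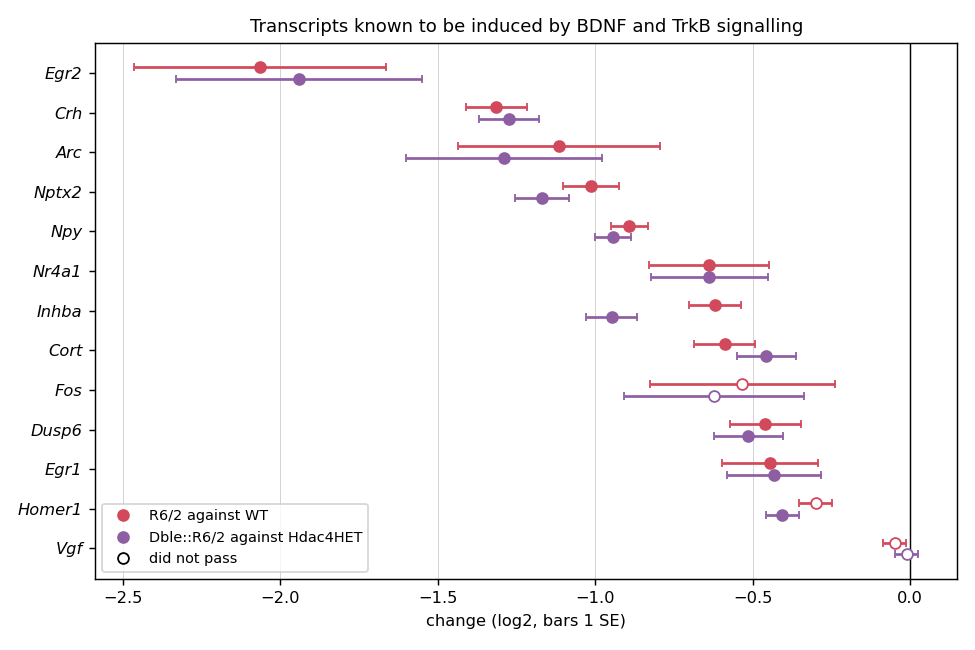
Log2 change of the 13 transcripts induced by BDNF and TrkB signalling, each by its brightest probe set, in R6/2 against WT and Dble::R6/2 against Hdac4HET. Bars are 1 standard error, and open circles did not pass both the fold and p thresholds. All points lie below 0, and 10 and 11 of the 13 passed both. By adjusted p alone 11 passed in each comparison.

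Partners of p75 and sortilin moved in both directions. Of 12 measured genes 3 changed to lower and none to higher in R6/2 against WT. At any size 4 were lower and 4 higher, where 18.4% of all genes were lower and 28.1% higher. In Dble::R6/2 against Hdac4HET 4 were lower and 6 higher, where 14.1% of all genes were lower and 28.4% higher. Lingo1, a co-receptor of p75 and the Nogo receptor, had levels of 10.80 to 11.17 (median 10.94) in WT and 9.82 to 10.20 (median 10.04) in R6/2 mice. No R6/2 mouse reached a WT mouse, and the change was −0.91 (standard error 0.05, adjusted p = 9.2e-17), with −0.86 (standard error 0.05, adjusted p = 2.05e-16) in Dble::R6/2 against Hdac4HET. Rtn4r, the Nogo receptor, changed by −0.54 and −0.41 (adjusted p = 4.99e-11 and 1.32e-08). Sorcs3, a relative of sortilin, changed by −0.48 (adjusted p = 2.45e-08) and was at −0.31 (adjusted p = 2.78e-05), under the fold threshold, in the second comparison. Kidins220, a scaffold of Trk receptors, was higher by less than the fold threshold, at 0.27 and 0.23 (adjusted p = 8.72e-08 and 7.33e-07), as was Traf6, an adaptor of p75, at 0.30 and 0.25 (adjusted p = 5.77e-07 and 1.14e-05). The median of the 12 was 0.07 and 0.14.

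Fewer genes for processing, transport and Trk signalling passed the fold threshold in R6/2 against WT. Of 12 measured proteases and regulators of proneurotrophin processing none changed in R6/2 against WT. The lowest p values were those of Pcsk7, a proprotein convertase, at 0.26 (adjusted p = 9.48e-06), and Mmp9, an extracellular protease, at −0.21 (adjusted p = 0.000836). Of 10 genes for the transport of BDNF vesicles none changed either, with Dync1i2, a dynein chain, at 0.15 (adjusted p = 3.05e-07) and Cadps2, which acts in vesicle release, at −0.33 (adjusted p = 3.06e-07). Of 33 Trk adaptors and kinases 2 changed, both higher, Sos1, a Ras activator, at 0.43 (standard error 0.03, adjusted p = 3.77e-13) and Gab2, a docking protein, at 0.40 (standard error 0.05, adjusted p = 3.3e-08). They were at 0.29 and 0.27 in Dble::R6/2 against Hdac4HET (adjusted p = 1.92e-09 and 1.72e-05), under the fold threshold. There the list changed at Pdpk1, a kinase upstream of Akt, at −0.55 (adjusted p = 1.43e-07), and Camk4, a calcium-dependent kinase, at −0.51 (adjusted p = 0.000633). At any size, 2 of 12 processing, 2 of 10 transport and 6 of 33 Trk genes were lower in R6/2 against WT. Higher were 2, 5 and 13 of them, where 18.4% of all genes were lower and 28.1% higher.

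Among 21 regulators of Bdnf transcription, Npas4, an activity-induced factor, was the only gene that changed in R6/2 against WT. Its levels were 6.04 to 8.42 (median 7.91) in WT and 5.78 to 7.85 (median 6.28) in R6/2 mice, which overlapped, and its change was −1.10 (adjusted p = 0.00411), with −1.18 (adjusted p = 0.00157) in Dble::R6/2 against Hdac4HET. Mef2c was at −0.28 (adjusted p = 0.00935) in the first and changed by −0.50 (adjusted p = 5.84e-06) in the second comparison. At any size 5 of the 21 regulators were lower and 8 higher in R6/2 against WT. Of 26 other trophic factors and receptors 2 changed to lower and 1 to higher in R6/2 against WT, and at any size 9 were lower and 4 higher. Gfra2, the neurturin receptor, changed by −0.83 and −0.97 (adjusted p = 2.21e-08 and 4.05e-10), Igf1 by −0.63 and −0.75 (adjusted p = 1.48e-08 and 1.79e-10), and Met, the receptor of hepatocyte growth factor, by 0.55 and 0.49 (adjusted p = 3.73e-06 and 1.76e-05). Cbln1, a secreted synaptic organiser, was at −0.31 (adjusted p = 0.0134) and changed by −0.46 (adjusted p = 0.000226). Ntf5, the remaining measured ligand, was at −0.05 (adjusted p = 0.662) and had a mean level of 3.81, low on these arrays.

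The genes whose levels most resembled those of each member were ranked by Pearson correlation over the 37 arrays with genotype means removed, among 18188 other genes. These arrays share RNA quality and dissection, and the values are a description. For Bdnf 1422168_a_at they were Synj2 at 0.73, Nr4a3 at 0.71 and Dusp4 at 0.70. For Ntrk2 1458622_at they were Lingo1 at 0.76, Ttll11 at 0.70 and Ntm at 0.70. For Ntrk3 1433825_at they were D8Ertd738e at 0.68, Tufm at 0.64 and Ly6e at 0.64. For Ngfr 1454903_at they were Fxyd1 at 0.72, Efnb3 at 0.70 and Blcap at 0.67, and for Sort1 1423362_at Hsph1 at 0.80, Ngef at 0.79 and Syt13 at 0.78. Among the members themselves, Ntrk2 1435305_at and 1437560_at varied together most closely, at 0.89, and Ntrk2 1437560_at varied with Ntrk3 1422329_a_at at 0.74.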

How the data were processed

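Cortex RNA was labelled with the 3' IVT Express kit from 200 ng of total RNA and hybridised to Affymetrix GeneChip mouse arrays, per the labels. The authors deposited log2 expression values, 1 per probe set and array. The methods describe RACE for quality control, by which chips whose median NUSE passed 1.05 were dropped. The chips are not listed, so all 37 were used, and the WT, Hdac4HET and Dble::R6/2 groups here are each larger than those the study tested. No source used here names the summarisation or normalization, and the values were used as deposited.

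Genotype, replicate number and sex came from the labels. Of 45037 probe sets 34945 had 1 symbol, 932 several and 9160 none here, and none with several was named. A model of the 4 genotypes was fitted over all 37 arrays in R 4.3.3 with limma 3.58.1 (lmFit, eBayes with a trend). Adjusted p values are Benjamini-Hochberg values over all probe sets, and "changed" means an adjusted p under 0.05 and a change above 1.3-fold. Sex was added to the model for females against males. Replicates were taken as separate mice. The script was tested on simulated data.

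Named were all member probe sets, up to 4 changed genes of each other list (or the 2 with the lowest p) and the 3 genes most like each member. Kidins220, Traf6, Vgf, Fos, Ntf5, Npy and Homer1 were named after their values were seen. Members and lists were chosen with earlier results of these data known. The fits were repeated after quantile normalization, with array weights, with a term for sex, with a replicate block, on the compared genotypes alone, on the brighter probe sets (above the median), without _s_at and _x_at probe sets, without a fold threshold, by the t-test of the methods, and with arrays left out. Figures were drawn in Python 3.11.15 with matplotlib 3.10.9.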

Additional observations from a re-analysis of the deposited data

Results flagged for a closer look

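Of 96 groups of mice tested for a mouse that stood apart from its genotype (24 probe sets in 4 genotypes), 4 held one, where chance gives about 5%. Ntrk2 1435305_at was lowest in WT replicate 8, at 10.91, with the nearest WT mouse at 11.18. Ntrk2 1446712_at was highest in R6/2 replicate 5, at 7.195, with the nearest at 6.832. Ngfr 1421241_at was lowest in R6/2 replicate 2, at 3.371, with the nearest at 3.83. Sort1 1450955_s_at was highest in Dble::R6/2 replicate 2, at 7.432, with the nearest at 7.269.

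The effect of the transgene on Ntrk3 1443970_at differed with the Hdac4 genotype, with an interaction of 0.2721 on the log2 scale (limma adjusted p = 0.0448). Over 46 alternatives it ran from 0.215 to 0.301, its adjusted p ran from 0.0278 to 0.499, and it did not pass in 27 of them. The highest p came without the 8 arrays with high bulb markers.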

How the results depend on the processing

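With no fold threshold the count of member probe sets rose to 18 in R6/2 against WT, to 16 in Dble::R6/2 against Hdac4HET and to 1 for the interaction. Under the other settings the counts were 3 or 4 and 7 or 8, and those of the other comparisons stayed at 0. Leaving out 1 array at a time gave 3 to 5 in R6/2 against WT, 6 to 9 in Dble::R6/2 against Hdac4HET and 0 to 1 in Dble::R6/2 against R6/2, the 1 being Ntrk2 1420837_at. The calls of 16 changes of single probe sets moved under at least 1 setting, 8 of them of Ntrk2. Ntrk3 1443970_at in Hdac4HET against WT passed in 7 of 48 (adjusted p from 0.03 to 0.709). No change of a member probe set that passed reversed its direction. Both bulb exclusions leave 2 or 3 Hdac4HET arrays. The replicate block gave 4 and 7 probe sets and 0 elsewhere; the numbers do not pair the mice (3 of 37 arrays correlated best with their own number, lowest pair correlation −0.268), and over all probe sets it moved the count in Dble::R6/2 against R6/2 from 121 to 20. Over all probe sets in that comparison the methods' t-test gave 15, only the genotypes compared 62, and the 3 array exclusions 19, 27 and 24. In Hdac4HET against WT, 131 became 10 by the t-test, 77 among the brighter probe sets, 26 with only the genotypes compared, and 8, 4 and 6 without those arrays. Levels at the low end of the arrays (Ntrk2 1444121_at, Ntrk3 1426003_at and 1443970_at, Ngfr 1421241_at) limit what can be seen there. Interaction counts over all probe sets moved from 113 to 283 with array weights and to 0, 1 and 3 without those arrays, and the count between sexes from 18 to 9 among the brighter probe sets and 0 with the replicate block. With no fold threshold the counts over all probe sets were 17496 in R6/2 against WT, 16562 in Dble::R6/2 against Hdac4HET, 895 in Dble::R6/2 against R6/2, 643 in Hdac4HET against WT, 436 for the interaction and 30 between sexes. With the fold threshold kept and 1 array left out, the counts over all probe sets ran from 31 to 218 in Dble::R6/2 against R6/2. They ran from 73 to 192 in Hdac4HET against WT and from 35 to 262 for the interaction.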
